A study of Mus musculus with 3 samples.

Results

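High-input bins are the places of the mouse genome where the input library of mature megakaryocytes (MK, the cells that release platelets) held far more reads than an average place of the same size. The genome build mm9 was divided into fixed bins of 400 bp, and a bin was kept when 47 or more input reads fell into it, about 10 times the mean of 4.65. Of 5945072 bins with a read of any library, 314 were kept (0.00528%), and adjacent ones were merged into 116 regions that covered 125600 bp. Of these regions 57 were a single bin and the longest held 24. Members were thus chosen by their input reads, so input counts and ratios to input are descriptions here, whereas the rule did not use FLI1 or RUNX1 reads, although it was set with earlier results of these data known.

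Much of a mammalian genome consists of repeated DNA. Tandem satellite arrays lie at and beside the centromeres, the genes for ribosomal RNA (rDNA) stand in long arrays of near-identical units, and recent duplications copy whole stretches of a chromosome. A genome build holds only a few of these copies, so reads from many copies in the cell can be placed at the few positions that the build keeps. FLI1, an ETS-family factor, and RUNX1, a Runt-domain factor, are both required for MK maturation.

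The data are 3 libraries from wild-type CD1 mice: 1 chromatin immunoprecipitation (ChIP-seq) library with an antibody against FLI1, 1 with an antibody against RUNX1, and 1 of input DNA that was not precipitated. All came from fetal liver, E15 by the labels and a day earlier by the methods, and the cells were cultured for 5 days with thrombopoietin to give mature MK. Each ChIP library is a pool of at least 3 precipitates without replicates. Libraries were therefore not tested against each other, and intervals cover counting error only. The labels name sonication alone, but the methods give micrococcal nuclease for the input, so antibody and preparation cannot be told apart in a ratio of ChIP to input. After repeated positions and chromosome M were left out, 62946422 FLI1, 3973856 RUNX1 and 21745220 input reads remained, with a mean of 13.5, 0.85 and 4.65 reads per bin. FLI1 reads within 1 kb of the start of MK genes reached 8.21 times the mean density at Pf4 and 9.10 times at Itga2b, against 0.787 times at Alb, a liver gene, and 0.727 times at Hbb-b1, an erythroid gene. At Vwf, another MK gene, the value was 0.787 times. Starts here are the outer ends of gene records, and the study lists a FLI1 site close to the Vwf start that it used.

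The 116 regions were sorted into 6 groups by place and by sequence, without use of the FLI1 or RUNX1 reads. No repeat annotation was used here, so each class is described by what the sequence itself shows. The satellite-like group held 27 regions (47 bins) that align to a locus on chromosome 2 over 100 bp or more. Its clearest form was a tandem array at chr9:3000001-3038400, near the start of the assembled chromosome, where all 10 regions repeated best at a lag of 234 bases, the unit length of mouse major satellite DNA, with 59.6% to 85.6% of bases matching the base one unit before. To show the repeat, 2 consecutive units are printed, with capitals in the second for the 20 bases that are unlike the first. A copy within the chromosome 2 locus and one from the end of chromosome 11 follow, with capitals for the 37 and 63 bases unlike the first unit when laid on it without gaps.
Unit 1, chr9:3026578-3026811, + strand: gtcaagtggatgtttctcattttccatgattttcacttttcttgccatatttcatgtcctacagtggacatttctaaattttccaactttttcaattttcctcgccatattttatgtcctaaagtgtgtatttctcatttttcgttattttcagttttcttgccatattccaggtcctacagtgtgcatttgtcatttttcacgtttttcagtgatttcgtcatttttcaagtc
Unit 2, chr9:3026812-3027045, + strand: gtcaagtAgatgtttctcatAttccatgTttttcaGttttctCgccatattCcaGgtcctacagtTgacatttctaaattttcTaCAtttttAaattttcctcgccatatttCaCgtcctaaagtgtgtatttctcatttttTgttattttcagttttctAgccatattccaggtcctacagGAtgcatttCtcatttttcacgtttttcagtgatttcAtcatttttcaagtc
Chromosome 2 copy, chr2:98502453-98502686, + strand: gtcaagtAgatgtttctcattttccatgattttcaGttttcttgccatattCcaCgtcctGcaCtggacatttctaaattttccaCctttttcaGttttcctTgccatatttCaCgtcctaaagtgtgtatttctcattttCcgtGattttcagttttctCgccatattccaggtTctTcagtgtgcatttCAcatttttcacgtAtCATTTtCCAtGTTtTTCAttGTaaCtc
Chromosome 11 end, chr11:3001946-3002179, + strand: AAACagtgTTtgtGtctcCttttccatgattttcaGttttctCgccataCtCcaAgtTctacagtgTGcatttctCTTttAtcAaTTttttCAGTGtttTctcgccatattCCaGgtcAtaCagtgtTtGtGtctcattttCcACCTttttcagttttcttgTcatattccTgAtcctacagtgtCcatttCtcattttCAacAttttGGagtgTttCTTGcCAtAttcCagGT

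The other groups differed from this in sequence. A GC-rich segment of chromosome 17 held 2 regions (13 bins) with a median GC content of 68.3%, against 41.8% over all bins with reads and 36.5% in the satellite-like bins. This place is known as the build's copy of an rDNA unit (Rn45s), a name that the annotation used, GENCODE M1, does not hold. That identity is background and was not tested. The group called the chromosome 11 array was set by position alone and held the most bins (144, in 26 regions). No short tandem repeat was found in the chromosome 11 array, where the best of the lags tried matched at most 34.5% of bases. All lags tried were under 1 kb, so a tandem repeat with longer units could not have been seen. A further 22 regions (54 bins) lay on chromosome Y. The ends of chromosomes 4 and 16 held 9 regions (17 bins), 8 of which repeated best at a lag of 21 bases with 50.6% to 68.9% of bases matching. The last 30 regions (39 bins) were scattered, and among them 5 regions in Mid1 on chromosome X repeated best at a lag of 31 bases with 38.5% to 66.4% of bases matching. A stretch of each of these short repeats is printed to show the unit, with capitals for bases unlike the base 21 places before (38 of 210) or 31 places before (29 of 217).
Chromosome 4 array, chr4:3009281-3009490, + strand: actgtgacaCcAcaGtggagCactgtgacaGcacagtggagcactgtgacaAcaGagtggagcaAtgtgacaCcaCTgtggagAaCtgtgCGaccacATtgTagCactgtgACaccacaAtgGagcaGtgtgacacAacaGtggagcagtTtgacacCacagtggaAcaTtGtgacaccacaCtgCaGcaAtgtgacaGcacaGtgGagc
Mid1 array, chrX:166432778-166432994, + strand: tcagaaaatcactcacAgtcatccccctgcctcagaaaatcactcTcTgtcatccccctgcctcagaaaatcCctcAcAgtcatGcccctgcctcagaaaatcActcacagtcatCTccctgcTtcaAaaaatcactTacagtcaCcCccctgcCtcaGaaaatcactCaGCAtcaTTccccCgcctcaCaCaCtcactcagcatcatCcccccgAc

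The members lay on 18 chromosomes and in 42 places separated by more than 50 kb, with 0 bins on chromosomes 7, 14 and 19 and 151 on chromosome 11. By the midpoint of the bin, 102 of 314 (32.5%) were no farther than 2 kb from a protein-coding TSS (transcription start site), against 5.95% of all bins with reads, and 75 of these 102 were in the chromosome 11 array and 26 in the satellite-like group, where predicted genes such as Gm10800 and Gm10801 overlie the repeat. Another 13 were in exons (4.14%, against 2.47%), 76 in introns (24.2%, against 35.4%) and 123 between genes (39.2%, against 56.2%). Of the 20 regions with most input reads, which held 58.0% of all input reads in members, 12 were in the chromosome 11 array, 3 on chromosome Y, 2 in the chromosome 17 segment, 2 in the satellite-like group and 1 on chromosome 4. Of the listed genes, Sfi1 overlapped 21 regions, Mid1 5, Pisd-ps1 3 and Sp110 2, whereas Sp100, Sp140, Glo1, Ide, Skint1, Etl4 and Zfp91 overlapped 0, and Rn45s, Erdr1, Asmt, Csprs and Snord116 were not found under these names in the annotation.

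Most high-input bins were also high in both ChIP libraries. FLI1 reached 10 times its mean bin (135 reads or more) in 215 of 314 members (68.5%), against 0.0659% of all bins with reads. RUNX1 reached 10 times its mean (9 reads or more) in 261 members (83.1%), against 0.0142%. Members lie in 42 places and adjacent bins are not independent, so these shares are given without intervals. The median member held 13.9 times the FLI1 mean and 18.8 times the RUNX1 mean, beside medians of 0.743 and 0 over all bins with reads. Members held 0.102% of FLI1 reads (64029), 0.309% of RUNX1 reads (12282) and 0.121% of input reads (26369). Without the satellite-like and chromosome 17 bins, 181 of 254 bins passed the FLI1 level and 205 the RUNX1 level.

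The RUNX1 fold differed more between the groups than the FLI1 fold, but 800 places per bin let a FLI1 fold reach at most 59.4 and a RUNX1 fold 941, so this spread and the next count depend in part on the counting in the fullest bins. RUNX1 reached 10 times its mean together with at least 3 times the FLI1 fold in 53 members (16.9%), against 0.00404% of all bins. All 13 chromosome 17 bins met this, with 34 of 47 satellite-like bins and 6 of the 39 scattered ones, but 0 of the 144 bins of the chromosome 11 array, 0 of the 54 on chromosome Y and 0 of the 17 at the ends of chromosomes 4 and 16. Just under the input threshold, among 179 bins with 33 to 46 input reads, 31 passed the FLI1 level, 65 the RUNX1 level and 26 the combined one. The 24 bins with 44 to 46 input reads had median folds of 8.91 for FLI1 and 11.2 for RUNX1, and the 25 bins with 47 to 49 had 5.57 and 11.8.

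**Figure D1:**
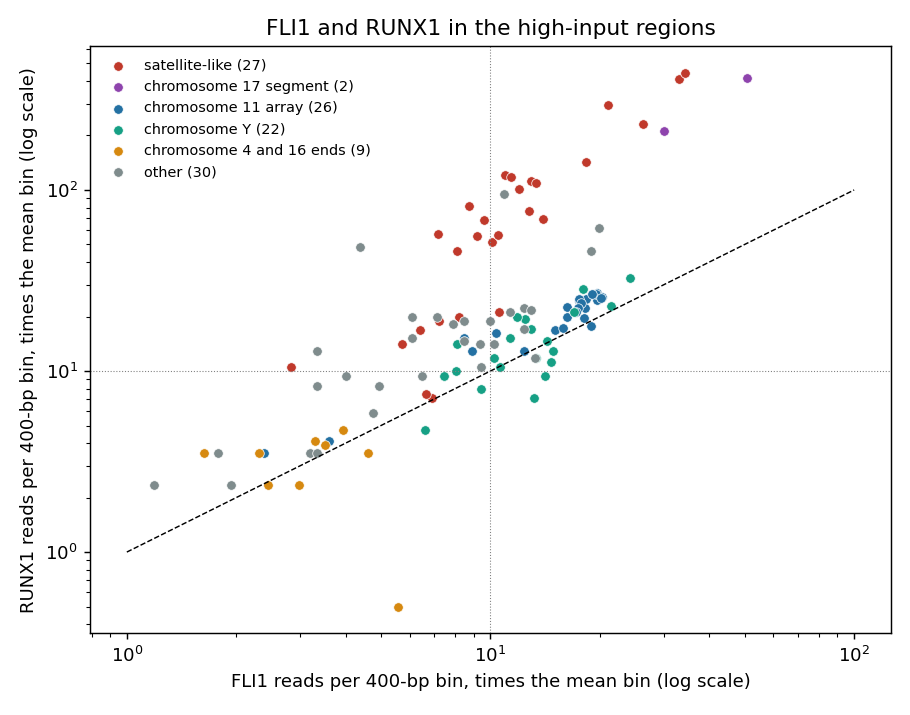
Each point is 1 of the 116 regions, with its FLI1 reads per bin on the x axis and its RUNX1 reads per bin on the y axis, each as a multiple of that library's mean bin (log scales). Colours give the sequence groups, the dashed line equal folds and the dotted lines 10 times the mean, and the region with 0 RUNX1 reads is drawn at 0.5. The chromosome 17 segment and most satellite-like regions lie far above the dashed line, whereas the chromosome 11 and chromosome Y regions lie close to it.

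The chromosome 17 segment held the highest counts of both ChIP libraries in any member. Across its 13 bins, the 1532 input, 7755 FLI1 and 3896 RUNX1 reads gave 25.3, 44.3 and 353 times the mean. Scaled to depth, RUNX1 was 13.9 times input (exact interval 13.1 to 14.8) and FLI1 1.75 times (1.66 to 1.85). RUNX1 over input was 7.80 and FLI1 over input 0.980 with input repeats kept, and from reads with no mismatch 9.12 and 0.835. Over the whole segment FLI1 thus stood above input only with all reads used and repeated positions counted once. With input repeats kept, FLI1 stayed above input in 1 of the 2 regions, chr17:39980001-39983600. In the other, the places unique for a FLI1 read did not allow a value above input, even if all were used. The larger region, chr17:39980001-39983600, held 1090 input, 6140 FLI1 and 3178 RUNX1 reads, and the smaller, chr17:39984001-39985600, which overlaps the pseudogene AY036118, held 442, 1615 and 718.

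These reads had sharp edges. Between 39979601 and 39986000 each of 16 bins held between 23 and 412 RUNX1 reads, whereas the 38 bins on both sides held 8 RUNX1 reads in all, with at most 2 in a bin, and at most 7 input and 15 FLI1 reads. The bin with most FLI1 (791 reads, 58.7 times its mean) was also that with most RUNX1 (412 reads, 485 times) and held 154 input reads. A bin has 800 places for a read (400 positions on 2 strands), and each place counts once, so 791 reads left almost none free. Of the places in the larger region that are unique at each library's read length, FLI1 used 87.5%, RUNX1 45.3% and input 15.8%, which means that the FLI1 count was near the most that this way of counting can give. With these places FLI1 over input could reach at most 2.22 in the larger region and 2.15 in the smaller.

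The middle of that fullest bin is printed because it held the peak of both antibodies. Capitals mark the letters TGTGGT, a core of the RUNX motif, and would also mark TGCGGT or the ETS core CCGGAA on either strand. They occur 1 time in these 300 bases.
Chromosome 17 bin, chr17:39981251-39981550, + strand: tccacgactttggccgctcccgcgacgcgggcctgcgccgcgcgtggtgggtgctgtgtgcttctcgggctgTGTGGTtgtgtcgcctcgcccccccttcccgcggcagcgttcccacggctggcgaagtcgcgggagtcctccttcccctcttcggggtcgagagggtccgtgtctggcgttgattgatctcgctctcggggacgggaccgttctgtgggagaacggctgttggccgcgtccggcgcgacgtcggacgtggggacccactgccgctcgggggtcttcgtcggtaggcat

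**Figure D2:**
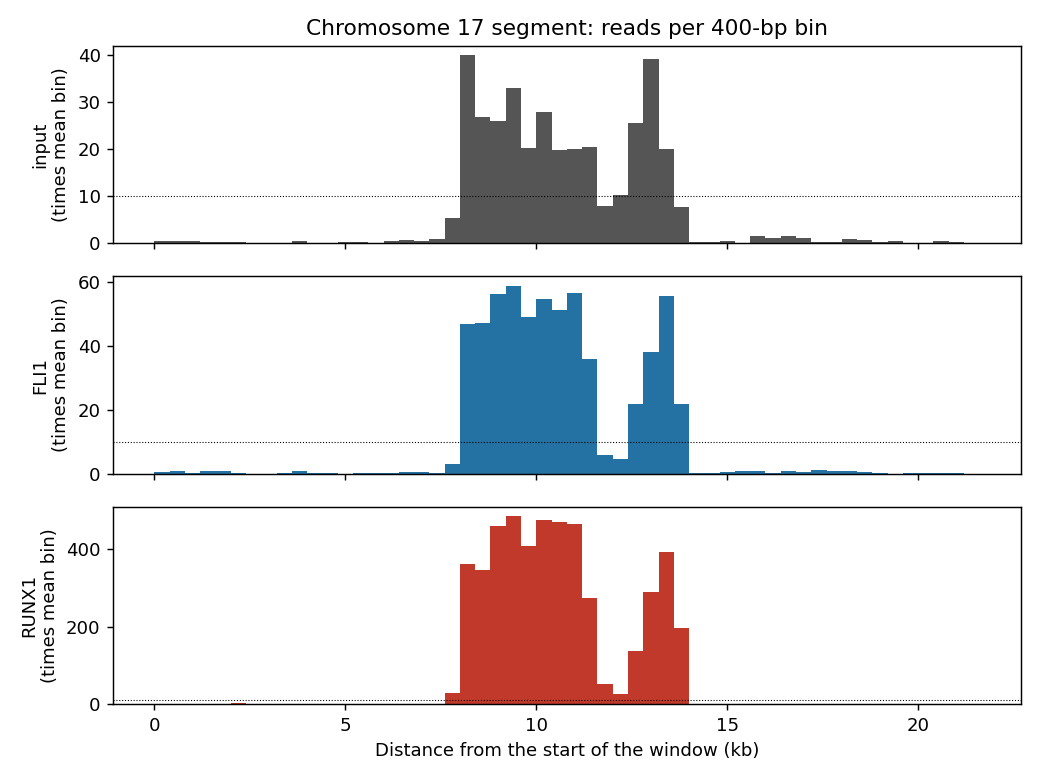
Bars are reads per 400-bp bin as a multiple of the mean bin, for input (top), FLI1 (middle) and RUNX1 (bottom), along a window over the chromosome 17 segment, with distance from the window's start in kb and a dotted line at 10 times the mean. All 3 libraries rise and fall at the same edges, and the axes differ, with RUNX1 up to 485 times and FLI1 up to 58.7 times the mean.

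With repeated input positions counted once, the satellite-like regions held more RUNX1 and less FLI1 than input, scaled to depth. Their 47 bins held 4703 input, 7995 FLI1 and 4226 RUNX1 reads. RUNX1 was 4.92 times input (interval 4.72 to 5.13) and FLI1 0.587 times (0.566 to 0.609), but with input repeats kept RUNX1 over input was 0.106. The FLI1 ratio was bounded by the counting, because FLI1 used up to 96.1% of the unique places of a region, and in 4 of the 27 regions the unique places allowed FLI1 over input to reach at most 0.673 to 0.802. Over all 27 regions this limit had a median of 1.69 and reached 5.53. It lay close to 1 in others too, as at chr9:3030001-3030400 (1.02, with 77.7% of unique places used). At the chromosome 2 locus, between 98502401 and 98507600, 4 regions (10 bins) held 1659 input, 2751 FLI1 and 2072 RUNX1 reads, and the single bin chr9:35112801-35113200 held 306, 460 and 378. The chromosome 9 array held 1220, 2709 and 1306 reads over 16 bins, and lies over the lincRNA gene Gm16869. Its first bin, chr9:3000001-3000400, was among the 5 regions with most reads per bin of each antibody, with 354 FLI1 and 196 RUNX1 reads.

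With repeated input positions counted once, RUNX1 over input was higher in the regions most like the chromosome 2 locus. The 19 regions with at least 85% identity (85.3% to 97.4%) had RUNX1 at 2.65 to 8.20 times input with a median of 5.67, and in all 19 the interval lay above 1. The 8 regions with 77.0% to 83.1% identity had 0.505 to 1.34 times with a median of 0.977, and the interval lay above 1 in 0 of them. These ranges do not overlap, but the split at 85% was chosen after the values were seen, and with input repeats kept the ranges overlapped, at 0.0524 to 1.39 for the former and 0.199 to 0.585 for the latter. FLI1 over input was 0.370 to 0.955 in the former and 0.263 to 0.606 in the latter.

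**Figure D3:**
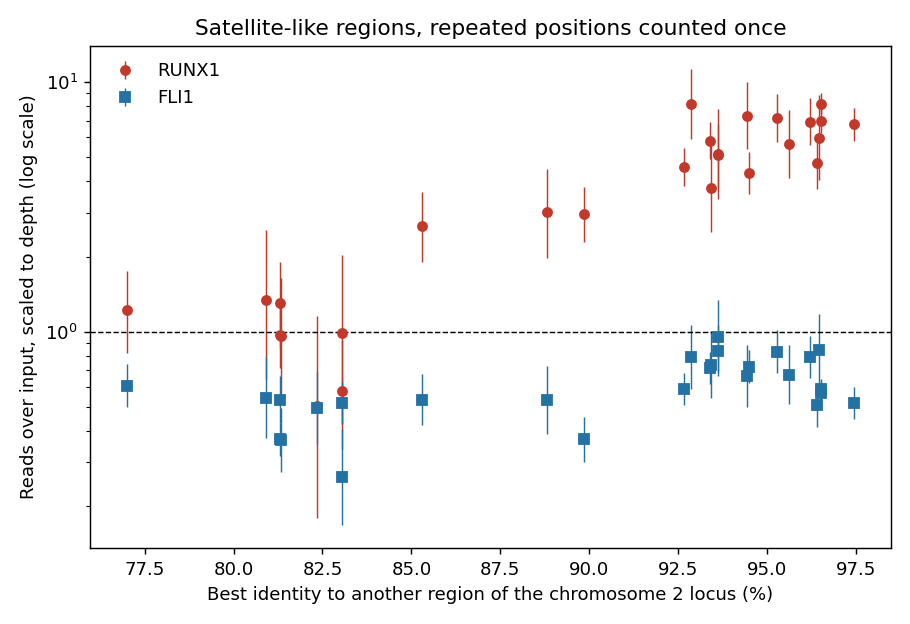
The x axis gives each satellite-like region's best identity in percent to another region of the chromosome 2 locus, and the y axis its RUNX1 (circles) and FLI1 (squares) reads over input, scaled to depth, on a log scale, with exact 95% intervals as bars and a dashed line at 1. RUNX1 lies at 2.65 or more in the regions of 85% identity or more and between 0.505 and 1.34 in the others, and FLI1 lies under 1 in all 27, in 4 of which the number of unique places did not allow a value of 1.

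These satellite-like ratios depended on how repeated reads were counted. The ChIP files hold each position and strand once, whereas the input file keeps repeats. In members, 261245 input reads fell on 26369 positions, so that 89.9% were repeats, against 3.24% in the whole input file. Of these, 225707 were in the satellite-like bins, 1.00% of all input reads and 48.0 reads for each position used. In the region chr2:98502401-98503200 a single position held 17067 reads while 78 of its 543 positions held 1. With input repeats kept, RUNX1 over input fell to 0.106 and FLI1 over input to 0.0126 in this group, and 1 of the 19 regions of high identity stayed above 1. Each ChIP place still counted once, so over the whole group neither antibody could reach input even with every place filled. The fall of the group below input was thus set by the counting. Repeats before removal cannot be counted in the ChIP libraries, so neither way of counting the input compares like with like. In the chromosome 17 segment input held 1.85 reads for each position.

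Reads in these regions also matched the build less often than elsewhere. In 2982 bins taken at every 2000th place, 87.3% of input, 81.5% of FLI1 and 59.0% of RUNX1 reads had no mismatch. Input mismatches are those coded in its file, which stop at 2, and its reads are shorter (34 bases, against 50), so shares are compared within a library. Where an input position held several reads, the read with fewest mismatches was counted. An input position is thus exact here if any of its reads was, which raises the input share where positions hold many reads. In the satellite-like bins only 55.5% of input, 4.65% of FLI1 and 0.663% of RUNX1 reads had none (28 of 4226 RUNX1 reads). In the chromosome 17 segment these shares were 72.8%, 33.2% and 31.6%, and on chromosome Y 33.9%, 16.9% and 12.8%. In the chromosome 11 array they were 67.9%, 53.4% and 40.1%.

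Ratios recomputed from reads with no mismatch, each library relative to its own reads in the bins at every 2000th place, changed by group. RUNX1 over input in the chromosome 17 segment was 9.12 (interval 8.40 to 9.89) against 14.2 for all reads on the same scale, and FLI1 over input was 0.835 against 1.71. In the satellite-like bins RUNX1 over input was 0.0886 (0.0588 to 0.128) against 5.02, and FLI1 over input 0.0515 (0.0461 to 0.0574) against 0.574, so that both libraries of 50-base reads fell against the input of 34-base reads. Among exactly matching reads RUNX1 was thus above input in the chromosome 17 segment and below it in the satellite-like regions. The satellite-like ratios also rest on input positions that counted as exact by their best-matching read, out of 48.0 reads per position.

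**Figure D4:**
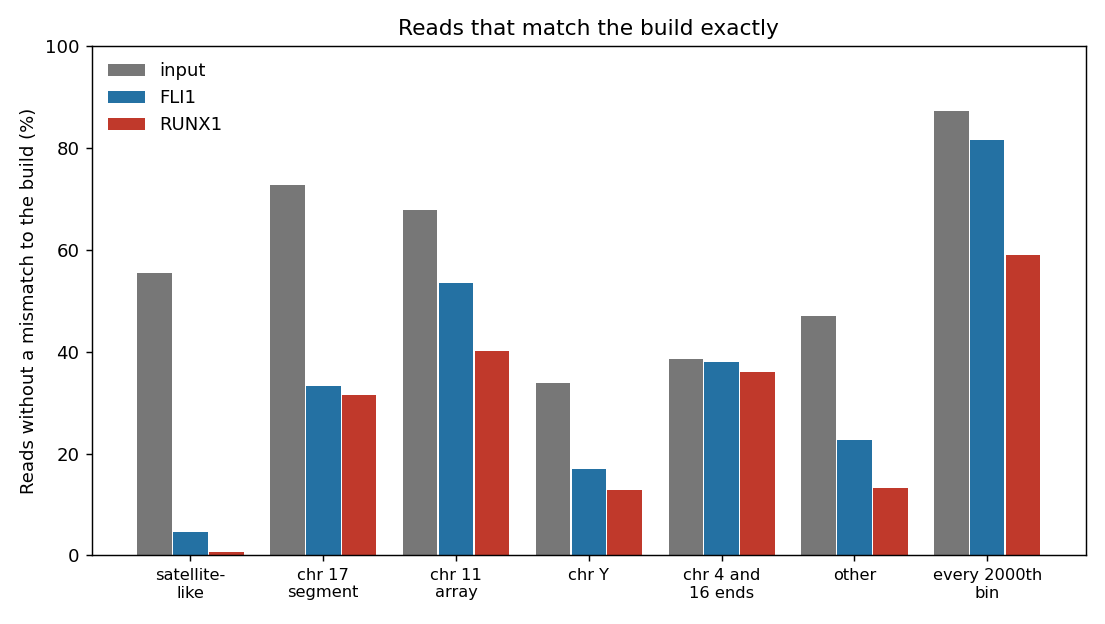
Bars give the percentage of input, FLI1 and RUNX1 reads that match the build without a mismatch in each sequence group and in bins taken at every 2000th place. An input position with several reads is counted by its best-matching read. The satellite-like bins have the lowest FLI1 (4.65%) and RUNX1 (0.663%) shares, and every group lies under the bins at every 2000th place (87.3%, 81.5% and 59.0%).

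The chromosome 11 array carried an excess of like size in all 3 libraries when repeated input positions were counted once. It runs from 3026801 to 3100000 through Pisd-ps1, Sfi1, which encodes a centrin-binding protein of the centrosome, and into Drg1, a GTP-binding protein gene. Of its 183 bins 144 were members. These held 12311 input, 31568 FLI1 and 2570 RUNX1 reads, 18.4, 16.3 and 21 times the mean, and FLI1 was 0.886 times input (0.868 to 0.905) and RUNX1 1.14 times (1.09 to 1.19). With input repeats kept FLI1 over input was 0.633 and RUNX1 over input fell below 1 (0.816), and from reads with no mismatch they were 0.729 and 1.02. The longest region, chr11:3059601-3069200 within Sfi1, held 2088 input, 5867 FLI1 and 456 RUNX1 reads, and RUNX1 over input there was 1.20 (1.08 to 1.32), but 0.844 with input repeats kept. Among regions of at least 3 bins, FLI1 over input was highest in the chromosome 17 region at 39980001 (1.95), then at chrY:2888801-2890000 (1.42), chromosome 17 at 39984001 (1.26), chr11:3091201-3095200 over Sfi1 and Drg1 (1.18) and chr11:3072401-3074800 (1.17). This order did not hold with input repeats kept, where the 5 values were 1.20, 1.14, 0.578, 0.892 and 0.887. At the near end of the array, regions in Pisd-ps1 were lower, with FLI1 at 0.173 times input at 3029201.

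Most of this array had no second copy in the build. For 21 of its 26 regions the median base had no other copy at 90% identity or more, and 90.9% of the places in its members are unique for a 34-base read. Of the 12311 input positions, 1 had an exact copy on the build's unplaced contigs. Across its 144 member bins FLI1 and RUNX1 counts rose and fell together (Pearson r 0.726, Spearman rho 0.692). Input also rose with FLI1 (Pearson r 0.522) and with RUNX1 (0.408), although its range was cut because bins were kept for high input. Neighbouring bins share sequence, base composition and mappability and are not independent.

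**Figure D5:**
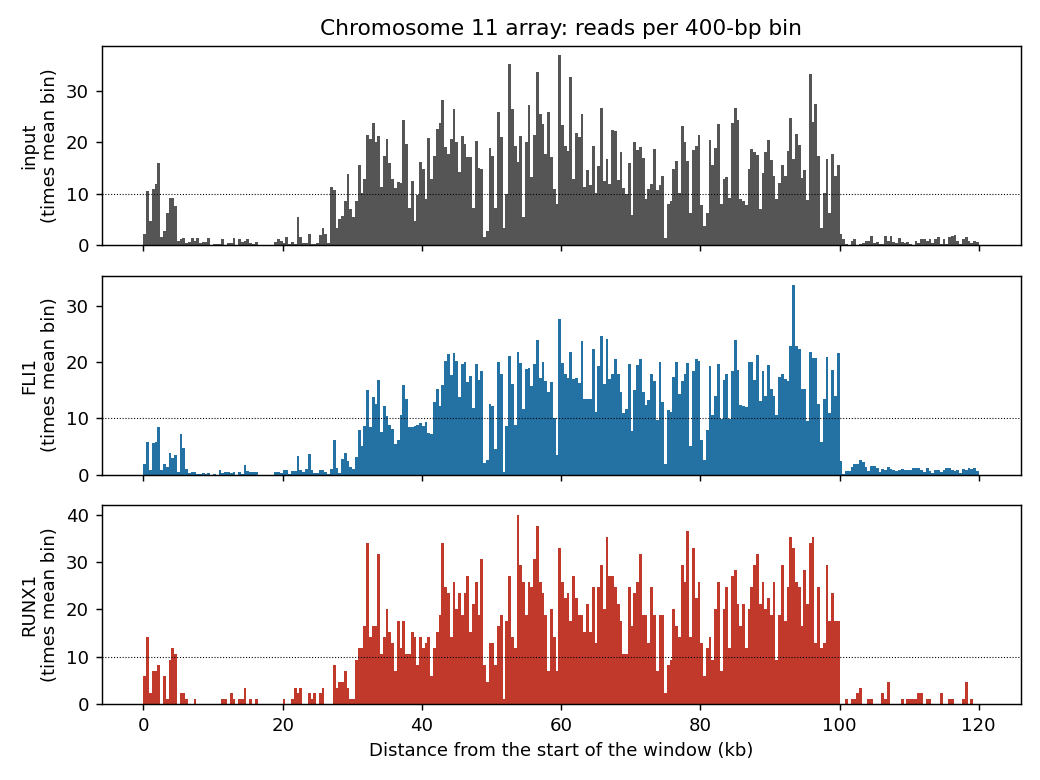
Bars are reads per 400-bp bin as a multiple of the mean bin, for input (top), FLI1 (middle) and RUNX1 (bottom), along a window over the chromosome 11 array, with distance from the window's start in kb and a dotted line at 10 times the mean. All 3 libraries form a plateau of like height that ends at the same place, about 100 kb into the window, and the satellite-like chromosome 11 end stands at the left.

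On chromosome Y both antibodies stood near the input only with all reads used and repeated input positions counted once. The 22 regions formed a group of 3 from 1788401 to 1792800 and one of 19 from 2779601 to 2902000, all between genes. Their 54 bins held 4265 input, 11390 FLI1 and 886 RUNX1 reads, FLI1 was 0.923 times input (0.891 to 0.956) and RUNX1 1.14 times (1.06 to 1.22). The largest, chrY:2779601-2784400, held 1301, 3915 and 331 reads. Unlike the chromosome 11 array, these regions were much repeated, with a median of 69 to 334 other copies per region, of which 69 to 333 lay on the build's unplaced contigs, and 75.2% of the input positions had an exact copy there. No read was placed on those contigs, and whether the authors' aligner index held them is not given in the sources used here. With input repeats kept, FLI1 over input on chromosome Y was 0.645 and RUNX1 over input 0.795, and from exact reads they were 0.482 and 0.646.

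The 9 regions at the ends of chromosomes 4 and 16, of which chr16:3246401-3246800 showed no short tandem repeat, held fewer ChIP reads than input reads, scaled to depth. Their 17 bins held 968 input but only 757 FLI1 and 50 RUNX1 reads, which were 12.2, 3.31 and 3.46 times the mean bin. FLI1 was 0.270 times input (0.245 to 0.297) and RUNX1 0.283 times (0.208 to 0.376), though keeping bins for a high input count favours ratios below 1. Of the 17 bins, 0 passed the level of 10 times the mean for FLI1 or for RUNX1. The largest region, chr4:3009201-3011600, held 370 input, 266 FLI1 and 21 RUNX1 reads, the lowest FLI1 over input (0.248) among the 33 regions of at least 3 bins. It was followed by chr4:3007601-3008800 with 0.284, and then by the satellite-like chr4:3016801-3018400 with 0.370 and chr11:3001201-3002400 with 0.516. This order too did not hold with input repeats kept, where chr4:3009201-3011600 was at 0.209 and the satellite-like chr2:98506001-98507600 at 0.0038. The letters TGTGGT, the RUNX core, were on either strand in 16 of these 17 bins (94.1%), against 26.01% of all bins with reads, and the bins held 0 to 6 RUNX1 reads each. In the printed chromosome 4 array their reverse complement, ACCACA, recurs within the 21-base unit. Bins that share this unit are therefore not separate occurrences of TGTGGT. The same letters were in 8 of 47 satellite-like bins (17.02%) and 5 of 13 chromosome 17 bins, and CCGGAA was in 2 and 4 of these, against 2.96% of all bins.

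Over the 39 bins of the scattered regions FLI1 was 0.609 times input (0.580 to 0.639) and RUNX1 1.38 times (1.27 to 1.51), but RUNX1 was 0.501 times with input repeats kept. Bins were kept for a high input count, which favours ratios below 1. In Mid1, which encodes a ubiquitin ligase and spans the pseudoautosomal boundary in mice, 5 regions from 166427201 to 166439200 held 367 input, 616 FLI1 and 89 RUNX1 reads, with FLI1 at 0.488 to 0.837 and RUNX1 at 1.13 to 1.86 times input, but with input repeats kept RUNX1 was at 0.606 to 0.907 times. In Sp110, a nuclear body gene on chromosome 1, both regions together held 186, 403 and 33 reads.

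A few scattered single bins were picked out after their values were seen. The bin chr11:108873201-108873600, 3106 bp from Gm11668, held 52 input, 147 FLI1 and 81 RUNX1 reads, with RUNX1 at 8.52 times input (5.94 to 12.3) and FLI1 at 0.977 times, and had no other copy in the build. With input repeats kept its RUNX1 over input was 5.59. The bin chr15:74916001-74916400, 22190 bp from Ly6c2, held 51, 254 and 39 reads, with FLI1 at 1.72 times input (1.27 to 2.37) and RUNX1 at 4.18 times (2.69 to 6.48), and both stayed above input with repeats kept (1.18 and 2.86). It lies close to the region chr15:74916801-74917600, whose bins held 255 and 281 FLI1 and 51 and 54 RUNX1 reads. Input there was higher, at 105 and 159 reads. The bin chrX:139917601-139918000 had a median of 2246 other copies and RUNX1 at 4.77 times input, and 41 of its 41 RUNX1 reads, 98.3% of its FLI1 reads and 95.7% of its input reads were on the plus strand. Its 1285 input reads fell on 47 positions, and with repeats kept RUNX1 over input was 0.181.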

How the data were processed

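Alignment was to mm9 by Bowtie, and reads with more than one placement were dropped upstream. The authors deposited the start, end and strand of each read, so every count given here was made from deposited positions. The ChIP files hold each position and strand once, and both hold fewer reads than the study tallies, RUNX1 by far the more so, so depths are those of the files. Reads were assigned by the 5′ end moved inwards by 63 bp (FLI1) or 80 bp (RUNX1 and input), repeated input positions counted once, and the mean bin rests on an effective genome of 1.87 Gb. Ratios to input have exact (Clopper-Pearson) 95% intervals that treat reads as independent and cover counting error only. Regions were aligned with blastn 2.17.0 to each other and to the build, and gene models are GENCODE M1. Mismatches of ChIP reads were counted against the mm9 sequence, and those of input reads were taken from codes in the deposited file. At a repeated input position the read with fewest mismatches was kept. Counting and intervals were tested on simulated independent reads. The simulation held no repeated sequence and did not count each place once, and its ratios were not selected by their input reads.

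The members, groups and gene lists were chosen with earlier results of these data known. Regions named are the 20 with most input reads, the 5 with most FLI1 and RUNX1 reads per bin, the 5 highest and lowest FLI1 over input among regions of 3 bins or more, and listed genes that a region overlaps. Alternatives were other thresholds, bin starts, read shifts, merging distances and depths.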

Additional observations from a re-analysis of the deposited data

How the results depend on the processing

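Starting bins at position 200 or leaving the 5′ ends in place gave 317 and 314 bins, and FLI1 shares of 0.103% and 0.103% and RUNX1 shares of 0.316% and 0.317%.
At 33 input reads there were 493 bins, with 0.153% of input, 0.126% of FLI1 and 0.365% of RUNX1 reads and a median FLI1 fold of 9.95.
At 93 input reads there were 101 bins in 57 regions, with 0.0576%, 0.0489% and 0.203% of reads, a median FLI1 fold of 19.8, and 97 bins past the FLI1 level and 98 past the RUNX1 level.
With input repeats kept there were 479 bins in 176 regions, with 1.29%, 0.122% and 0.376% of reads and a median FLI1 fold of 10.03.
Without chromosomes X and Y the shares were 0.100%, 0.0839% and 0.292%.
Merging bins up to 1 kb or 10 kb apart left 74 or 46 regions, and a mean over bins with a read gave a median FLI1 fold of 17.7.
The cause of these shifts was not tested beyond the construction of each setting.
Of 65 such values, 36 stayed close, which means within 1.5 times for a count and within the main value's 95% interval for a share or a median fold. For a median fold this interval is the counting error of a single bin at the median count, which is wide for RUNX1 (10.8 to 30.6). The median RUNX1 fold thus counted as close at 15.3 (33 input reads) and 28.2 (93 input reads), against 18.8 in the main setting.
Settings added after the data were seen turned ratios to the other side of input.
With input repeats kept, RUNX1 over input became 0.816 on chromosome 11, 0.795 on chromosome Y, 0.501 in the scattered regions and 0.106 in the satellite-like ones, and FLI1 over input 0.980 in the chromosome 17 segment. The satellite-like change of side was set by the counting. ChIP reads counted once per place could not reach the input with repeats there, even with every place filled.
With exact reads only, RUNX1 over input became 0.646 on chromosome Y, 0.583 in the scattered and 0.0886 in the satellite-like regions, and FLI1 over input 0.835 in the chromosome 17 segment.
RUNX1 over input in that segment was 7.80 and 9.12 under these settings.
No paired analysis was possible because each antibody has 1 library.
The deposited RUNX1 reads were few, with a mean of 0.85 per bin. FLI1 in the chromosome 17 segment and in many satellite-like regions was limited by the places a bin offers. In 4 of the latter these did not allow FLI1 over input to reach 1, and in others the limit lay little above 1.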
